A study of Mus musculus with 3 samples.

Results

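This report describes 8 genes of the cellular antioxidant response, Akr1b3, Hmox1, Nqo1, Gclm, Srxn1, Txnrd1, Prdx1 and Txn1, out of 50507 gene rows in a table of unique molecular identifier (UMI) counts. The 8 genes were chosen by name, with earlier results of these same counts known, so their levels and fold changes are given as a description and no test is read from them. All 8 had counts. The filter on low counts was passed by 7 of them, and Srxn1, with 291 counts over all libraries, did not pass it and was added to the 3013 genes that did. Together with further listed genes this made 3035 genes in the fit.

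The cells were primary mouse embryonic fibroblasts of the BL6 strain, transduced with the doxycycline-inducible tet-STEMCCA lentivirus, which carries Oct4, Sox2, Klf4 and Myc, and with an rtTA lentivirus. In the time course, untransfected cells were re-plated and sampled on days 0 to 6 of induction (Day00 to Day06, 3 libraries each). In the screen, transduced cells were reverse transfected with 1 of 33 pooled siRNAs, with a non-targeting siRNA (nt) or with the lipid reagent and no siRNA (Mock), re-plated a day later, induced, and sampled on day 6. All groups but Day00 had been in reprogramming medium, which held doxycycline, chiron, an Alk5 inhibitor, ascorbic acid and LIF, so that the factors and the medium begin together at day 0 and cannot be told apart. The cells were bulk cultures in which only some cells respond to the factors, and for every gene below fewer cells of a type and less RNA per cell cannot be told apart.

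The antioxidant response is driven largely by the transcription factor NRF2 (gene Nfe2l2), which KEAP1 holds back in resting cells and which binds antioxidant response elements once electrophiles or oxidants modify KEAP1. Its known targets include genes for haem breakdown (Hmox1), quinone reduction (Nqo1), glutathione synthesis (Gclm) and the thioredoxin system (Txnrd1, Srxn1, Prdx1, Txn1). Akr1b3 encodes aldose reductase, which reduces glucose to sorbitol and also clears reactive aldehydes. It is known both as an aldehyde-detoxifying enzyme and as a target of the osmotic stress factor NFAT5, since sorbitol is an osmolyte.

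In the GRCm38 mouse assembly (GENCODE vM21), all 8 are protein coding. Akr1b3 lies on chromosome 6 from 34302434 to 34317478 on the minus strand, and Hmox1 on chromosome 8 from 75093621 to 75100589 on the plus strand. Nqo1 lies on chromosome 8 from 107388225 to 107403206 (minus), Gclm on chromosome 3 from 122245557 to 122270732 (plus), and Srxn1 on chromosome 2 from 152105516 to 152111376 (plus). Txnrd1 lies on chromosome 10 from 82833951 to 82897712 (plus), Prdx1 on chromosome 4 from 116685544 to 116700822 (plus), and Txn1 on chromosome 4 from 57943373 to 57956411 (minus).

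RefSeq promoter windows (GRCm38.p6, 250 bases before to 50 after each start) were held for 6 of the 8 genes, which left out Akr1b3 and Hmox1. The core of the antioxidant response element, TGACNNNGC, was searched on both strands. It was found in the windows of 4 genes, Gclm, Srxn1, Txnrd1 (1 of its 3 starts) and Prdx1, that is 4 of the 6 genes with windows, where 14% of all 27025 genes had it in at least 1 window (12.4% of all 32851 windows). The Srxn1 match began 29 bases after the start and is not shown. The other 3 matches lie before the start and are printed below on the gene's strand, 5′ to 3′, because they carry the element that gives the gene group its name. The capitals mark the core, which in each case reads on the opposite strand. No exon of GENCODE covers these stretches, and the Txnrd1 stretch lies inside the Txnrd1 gene body, before an internal start.
Gclm, chr3:122245413-122245442, plus strand, core from base -134: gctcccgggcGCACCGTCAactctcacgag
Txnrd1, chr10:82859104-82859133, plus strand, core from base -92: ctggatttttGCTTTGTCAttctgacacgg
Prdx1, chr4:116685456-116685485, plus strand, core from base -133: cagggaaagcGCTGAGTCAtcccccgtagg
A match of letters is not a measured binding site.

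The 127 libraries used held 29656 to 235292 counts each (median 73279), and 2 further libraries under 10000 counts were left out, which leaves siMtf1 with 2 libraries and Mock with 5. Levels are given as CPM, the counts of a library scaled to a common total of the tested genes after TMM normalisation. Replicate numbers stand for 3 sequenced pools. The paper states 3 transfections per siRNA and calls the 3 sequencing replicates independent. Nothing in the labels says that same-numbered cultures were separate cell preparations, so the spread may be partly technical. All 6 fibroblast markers were detected on each day, in nt, in Mock and over the siRNA libraries as a pool, and their summed level was 5400 to 7530 CPM on Day00, 2140 to 3130 CPM on Day06 and 1270 to 1490 CPM in nt. On Day01 it was already 3070 to 3780 CPM. The 5 epithelial and early pluripotency markers summed to 8.11 to 21.9 CPM on Day00 and 90.4 to 254 CPM on Day06. Summed macrophage markers were 122 to 203 CPM on Day00 (2 of 6 markers detected) and 18.1 to 90.4 CPM on Day06, and the 5 erythroid markers had no count in any library. The part of these cell types in the changes below was not tested.

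Akr1b3 had 2 high points separated by a trough. On Day00 its level was 2496, 1050 and 2441 CPM in replicates 1, 2 and 3, and on Day01 it was 334.8, 187.5 and 376.5 CPM. It then stood at 1086, 480.5 and 1207 CPM on Day02 and at 3242, 1978 and 3717 CPM on Day03. The Day01 libraries lay below all Day00 libraries, and the Day03 libraries lay above all Day02 libraries.

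From Day04 on, Akr1b3 was low. Its level was 170, 253.9 and 289.3 CPM on Day04, 337.6, 144.4 and 316.5 CPM on Day05, and 210.9, 271.7 and 243.8 CPM on Day06. All 9 libraries of days 0, 2 and 3 were at or above 480.5 CPM, and all 12 libraries of the other days were at or below 376.5 CPM. Replicate 2 held the lowest value on days 0, 1, 2, 3 and 5 and not on days 4 and 6, while the direction of each step up to Day04 was the same in all 3 replicates.

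**Figure D1:**
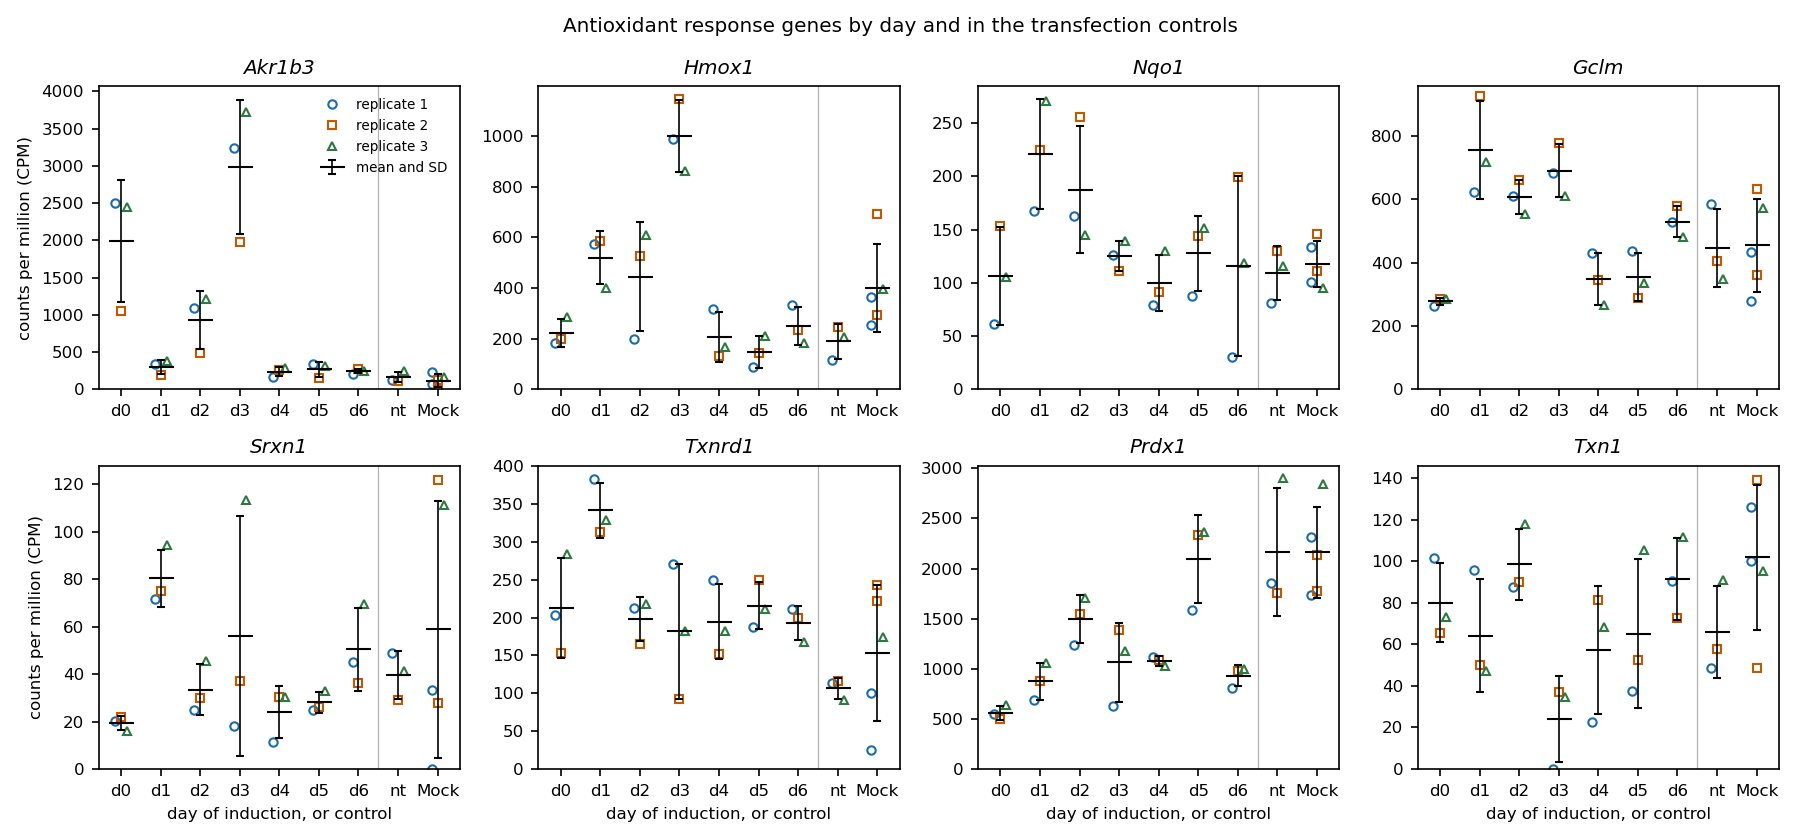
Level of each of the 8 genes in CPM (vertical axis, from 0, a different scale in each panel) on days 0 to 6 and in nt and Mock. Each point is 1 library, its shape and colour give the replicate, and the bar gives the mean and SD; Akr1b3 is high on days 0 and 3, Hmox1 on day 3, and Gclm, Nqo1, Srxn1 and Txnrd1 have their highest mean among the days on day 1.

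In the edgeR fit, Akr1b3 was 6.76-fold lower on Day01 than on Day00 (log2 fold change -2.76 ± 0.24, SE) and 8.57-fold lower on Day06 than on Day00 (-3.10 ± 0.24). Between neighbouring days it was 3.16-fold higher on Day02 than on Day01 (1.66 ± 0.25) and 3.2-fold higher on Day03 than on Day02 (1.68 ± 0.19). The step down from Day03 to Day04 was 12.3-fold (-3.62 ± 0.22). The values of Day04, Day05 and Day06 overlapped, and the fitted steps between them were 0.14 ± 0.28 and -0.20 ± 0.30. On Day03 it was 1.49-fold higher than on Day00 (0.58 ± 0.18), with overlapping libraries. Ordered by mean CPM, the days ran Day03 (2979 ± 899, SD, n = 3), Day00 (1996 ± 819), Day02 (925 ± 389), Day01 (300 ± 99.3), Day05 (266 ± 106), Day06 (242 ± 30.4) and Day04 (238 ± 61.3). Only the step between Day02 and Day01 in this order separated neighbours whose libraries did not overlap.

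The share of all 3035 genes that was called at an adjusted p under 0.05 (edgeR's quasi-likelihood test, Benjamini-Hochberg) gives the scale for calls among the 8. Over the 7 days as a whole 42.6% of genes were called, and 5 of the 8 (Akr1b3, Hmox1, Nqo1, Gclm and Prdx1). Against Day00 the share was 10.1% on Day01 with 4 of the 8 called, 11% and 11.7% on Day03 and Day02 with 4 of the 8 each, and 19.1% on Day04 with 2. It was 31.9% on Day05 with 2 of the 8 called and 22.6% on Day06 with 3. Akr1b3 and Prdx1 were among those called on each of the 6 days, and these 6 comparisons share the Day00 libraries. Between neighbouring days, comparisons that were added once the levels had been seen, 4.25% of genes were called for Day02 against Day01 and 2.97% for Day03 against Day02, with 2 of the 8 in each. For Day04 against Day03 it was 12.2% and 3 of the 8 (Akr1b3, Hmox1 and Gclm), for Day05 against Day04 4.35% and 1 (Prdx1), and for Day06 against Day05 8.01% and 1 (Prdx1). Without the replicate block the count was 1 for Day02 against Day01 and for Day03 against Day02 and 0 for Day05 against Day04, and in a limma fit of the deposited log2 values it was 0 in these 3 comparisons. It was also 1 for Day02 against Day01 without replicate 3 and for Day03 against Day02 without replicate 1 or with no filter on low counts. Over 10 alternative settings, the call of Hmox1 on Day01 held in 4, that of Prdx1 on Day01 in 2 and that of Akr1b3 on Day03 in 4, while Akr1b3 and Gclm on Day01 were called in all 10. The call of Prdx1 held in 7 of 10 on Day03 and in 6 of 11 on Day06, and that of Gclm on Day06 in 7 of 11. Without the replicate block 2 of the 8 were called on Day01. In the limma fit 2 were called on each of Day01, Day02 and Day03. With 1 replicate left out, the count was as low as 2 on Day03 and 1 on Day06. Since the genes were chosen with these counts known, nothing is read from the difference to the background.

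**Figure D2:**
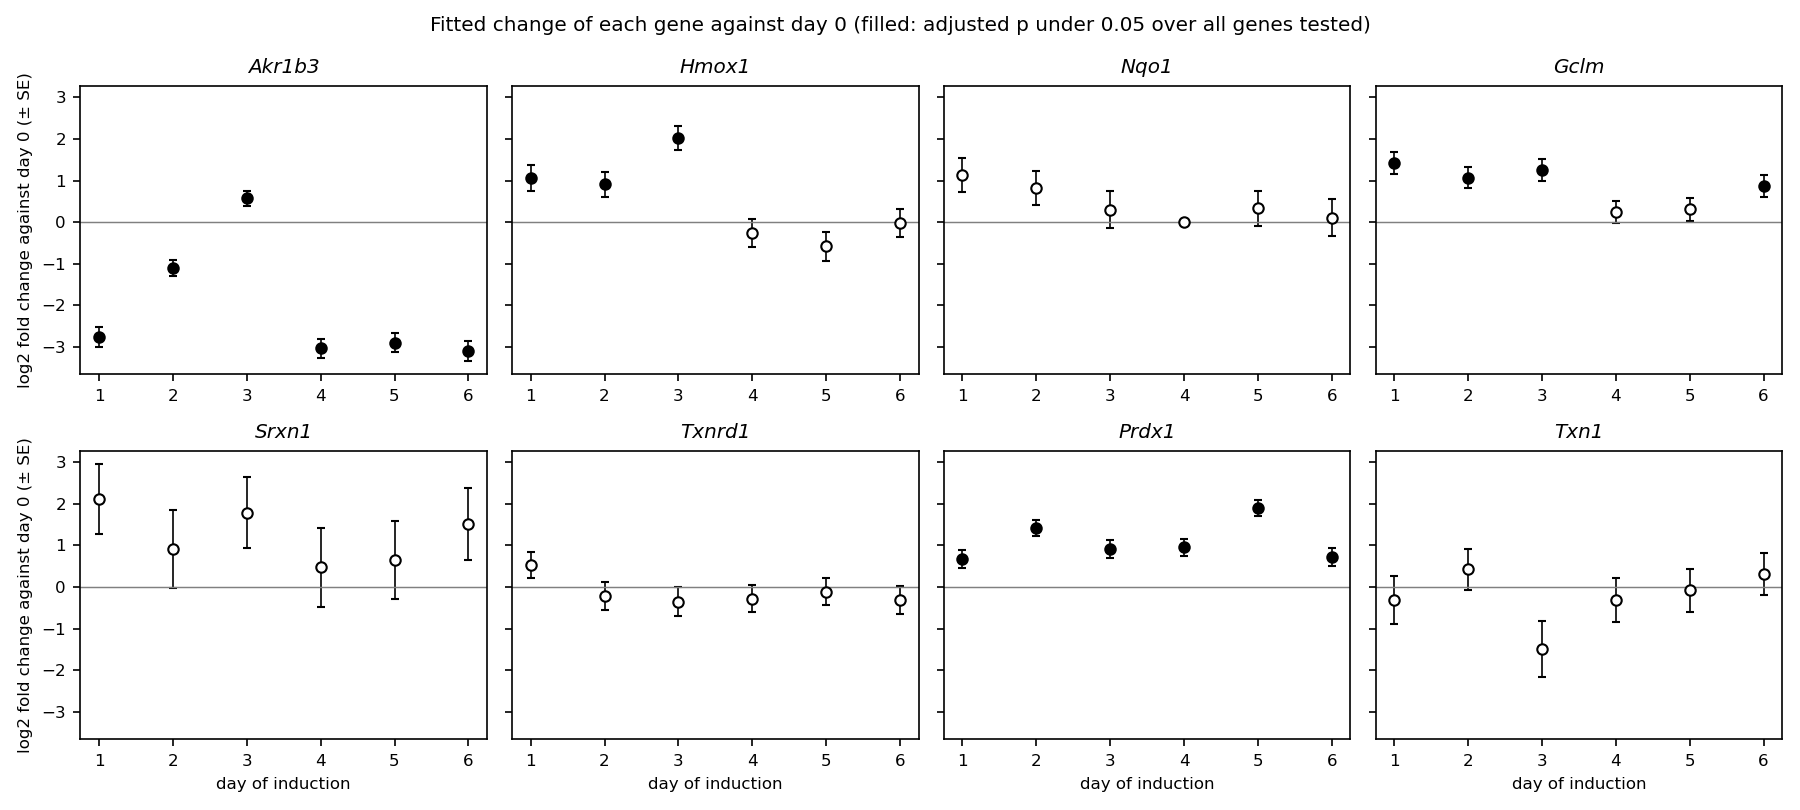
Fitted log2 fold change against Day00 (vertical axis, bars are SE) of each gene on days 1 to 6 (horizontal axis), with filled points for an adjusted p under 0.05 over all 3035 genes. Akr1b3 lies at -2.76 on day 1, at 0.58 on day 3 and at -3.10 on day 6, while Prdx1 is above 0 on every day, and Nqo1 on day 4, with a change near 0, carries no SE bar.

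Sequence copies bear on 2 of the genes. The last 300 bases of the Akr1b3 transcripts matched 4 other annotated genes at 95% identity or more over at least 100 bases, Gm12138, Gm38056, Gm6644 and Gm6736, which together held 173 counts beside the 2740 of Akr1b3. The copies followed Akr1b3, with 23 counts on Day00, 4 on Day01, 31 on Day03 and 3 on Day04, so the split between Akr1b3 and its copies is uncertain while their sum has the same course. Prdx1 had 2 such copies, Gm21399 and Gm7204, with 2091 counts beside its 16283, between 6.47% and 13.8% of the sum on the 7 days. No copy was found for the other 6 genes. Genes annotated on the opposite strand overlap Akr1b3, Gclm and Txnrd1, and on the same strand Gm6061 overlaps Gclm and Eid3 overlaps Txnrd1, none of them with an exon in the last 1000 bases, where the 3′ reads of the method fall.

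The genes most like Akr1b3 over the 42 condition means of log2 CPM (replicate difference removed) were Hspa1b (Pearson r = 0.855), an inducible heat shock protein, Hspa4l (r = 0.85), a heat shock protein known from osmotic stress, and Ier3 (r = 0.846), an immediate early response gene. This likeness lies in the time course. Over the 7 days alone the r values were 0.937, 0.93 and 0.906, and over the 35 transfected conditions they were 0.253, -0.00382 and 0.155. These are descriptions over means that share libraries, with Akr1b3 near its low level in all transfected conditions.

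Hspa4l was also a member of a list of 5 osmolyte response genes listed for their known roles. On Day00 it stood at 710.1, 175 and 648.8 CPM, on Day01 at 119.6, 237.5 and 188.3 CPM, on Day02 at 374.5, 345.3 and 390.3 CPM, on Day03 at 1009, 277.3 and 722.5 CPM and on Day04 at 215.4, 111.7 and 175.1 CPM. As for Akr1b3, replicate 2 was the lowest on Day00 and Day03, and on Day01 that replicate was not lower than on Day00. Hspa4l fell 2.6-fold on Day01 against Day00 (log2 -1.38 ± 0.35, edgeR adjusted p = 0.00259) and 5.27-fold on Day06 (adjusted p = 4.4e-08).

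Slc5a3, the sodium-dependent myo-inositol transporter, which takes up another osmolyte, was also low on Day01 and high on Day03. It stood at 284, 153.1 and 421.7 CPM on Day00, at 95.65, 87.51 and 153 CPM on Day01, at 249.7, 120.1 and 163.4 CPM on Day02, at 324.2, 258.8 and 304.7 CPM on Day03 and at 136, 60.94 and 83.74 CPM on Day04. It fell 2.65-fold on Day01 against Day00 (log2 -1.41 ± 0.39, edgeR adjusted p = 0.00789) and 2.49-fold on Day06 (adjusted p = 0.00351). The split of days 0, 2 and 3 from the other days that Akr1b3 showed did not hold for either gene, with a lowest value of 120.1 against a highest of 153.2 CPM for Slc5a3 and of 175 against 237.5 CPM for Hspa4l. Without replicate 3 neither Day01 fall was called, that of Hspa4l was not called without replicate 1 either, and without replicate 2 it was -2.09 on the log2 scale. The r of Slc5a3 with Akr1b3 over the 42 conditions was 0.699, the 50th of 3034 genes. Slc6a12, the betaine transporter, had 8 counts on Day00 and 0 on Day01 and on Day06. With the 0 set to 3 counts and the 8 taken as exact, it was 3.24-fold lower on Day06 than on Day00. Its call on Day06 held in 4 of 9 alternative settings. The taurine transporter Slc6a6 and the transcription factor Nfat5 were not called on Day01, Day03 or Day06 against Day00.

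**Figure D3:**
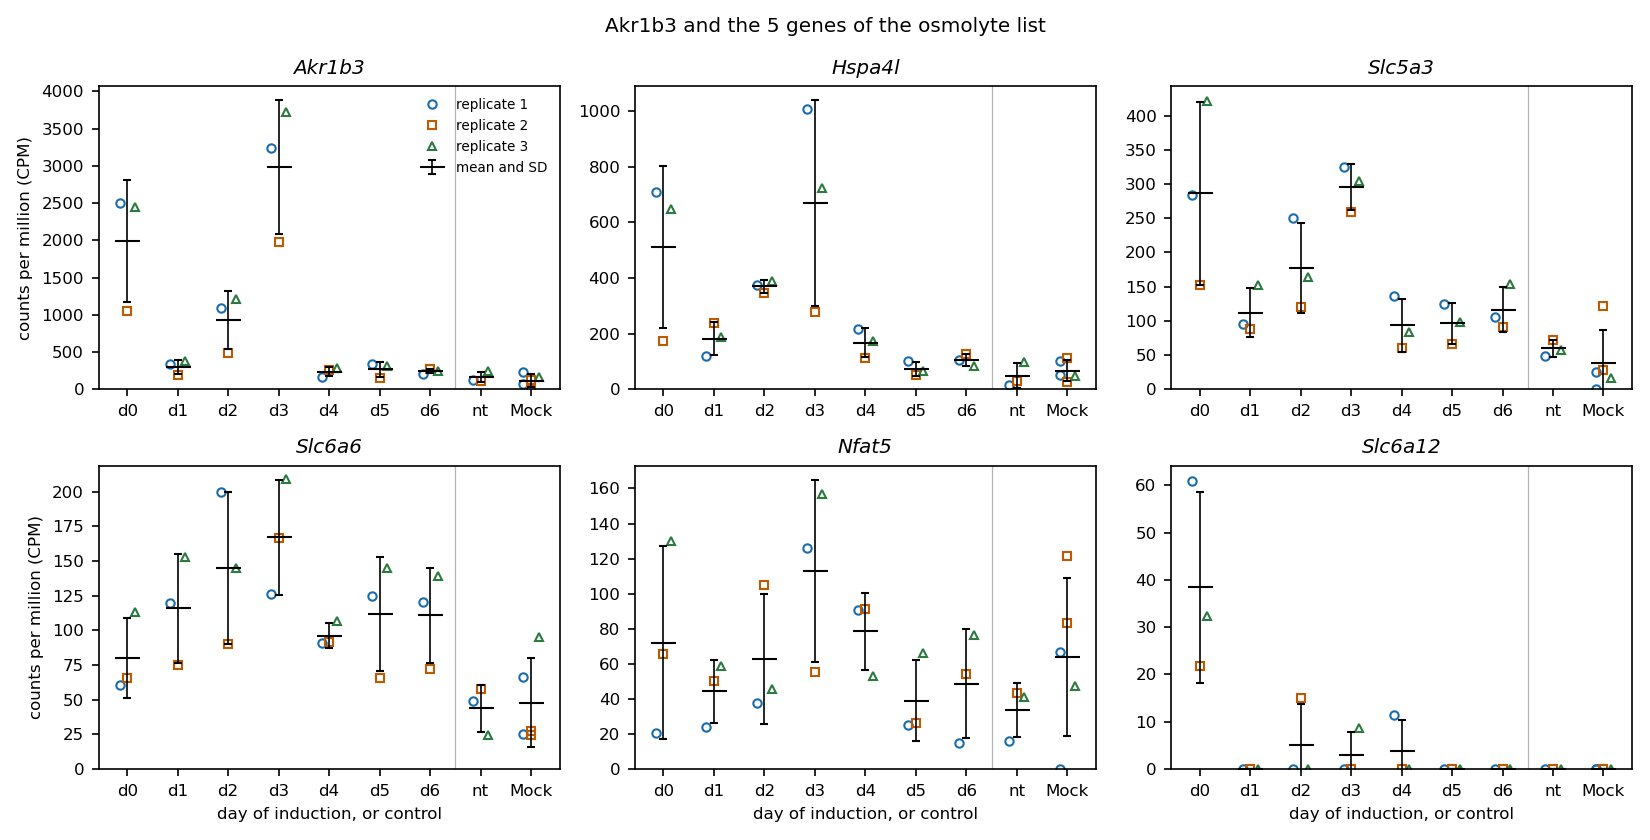
Level in CPM (vertical axes, from 0) of Akr1b3 and of the 5 osmolyte genes on days 0 to 6 and in nt and Mock, with 1 point per library and the mean and SD. Akr1b3, Hspa4l and Slc5a3 have their highest means on days 3 and 0, Slc6a6 has its highest mean on day 3, and Slc6a12 has counts chiefly on day 0.

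Hmox1, the inducible haem oxygenase, had a single high point on Day03. Its level was 182.6, 196.9 and 283.9 CPM on Day00, 573.9, 587.6 and 400.1 CPM on Day01, and 199.7, 525.5 and 608.2 CPM on Day02. On Day03 it was 990.6, 1146 and 861.8 CPM, above every other library of the time course, and on Day04 it was 317.4, 132 and 167.5 CPM. The fitted change against Day00 was 2.08-fold on Day01 (log2 1.06 ± 0.31), 4.07-fold on Day03 (2.02 ± 0.28) and 1.01-fold on Day06 (-0.01 ± 0.33). From Day03 to Day04 it was 4.87-fold lower (-2.28 ± 0.27), the same step at which Akr1b3 fell by 3.62 on the log2 scale. Macrophages are also known to hold haem oxygenase. Their 6 markers summed to 122 to 203 CPM on Day00 (2 of 6 detected), 47.1 to 50 CPM on Day01 (3 of 6), 55.5 to 126 CPM on Day03 (3 of 6) and 34 to 102 CPM on Day04 (2 of 6). C1qa was at 0 in every library, Ptprc and Tyrobp were at 0 on Day00 and detected on Day03, and Cd68 was detected on Day00 and at 0 on Day03. The part of these cells in the Hmox1 level was not tested.

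Gclm, the modifier subunit of the enzyme that limits glutathione synthesis, was low on Day00 and high on days 1 to 3. It stood at 263.8, 284.4 and 283.9 CPM on Day00, the lowest mean of all 42 conditions, and at 621.7, 925.1 and 717.8 CPM on Day01. It was 611.7, 660.7 and 553.7 CPM on Day02 and 684.4, 776.5 and 609.3 CPM on Day03. None of these 9 libraries overlapped with those of Day00. It then stood at 430.7, 345.3 and 266.4 CPM on Day04, which overlaps Day00, and at 527.3, 579.5 and 480.6 CPM on Day06. The fitted change against Day00 was 2.68-fold on Day01 (log2 1.42 ± 0.25), 2.38-fold on Day03 (1.25 ± 0.26) and 1.83-fold on Day06 (0.87 ± 0.26), and from Day03 to Day04 Gclm was 2.01-fold lower (-1.01 ± 0.23).

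Nqo1, the quinone reductase, had its highest mean of all 42 conditions on Day01. It stood at 60.87, 153.1 and 105.4 CPM on Day00 and at 167.4, 225 and 270.6 CPM on Day01, without overlap, a 2.18-fold difference (log2 1.12 ± 0.41) that did not pass the threshold over all genes. On the later days the libraries overlapped with those of Day00, with means between 100.1 and 188 CPM. Its 963 counts, about 7.58 per library, make each value coarse.

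In the thioredoxin system, Srxn1 (sulfiredoxin, which repairs overoxidised peroxiredoxins) and Txnrd1 (cytosolic thioredoxin reductase) also had their highest mean of all 42 conditions on Day01. Srxn1 stood at 20.29, 21.88 and 16.22 CPM on Day00, from 4 counts in all, and at 71.73, 75.01 and 94.14 CPM on Day01, from 17. The groups did not overlap, and the 4.35-fold difference (log2 2.12 ± 0.84) did not pass the threshold. On Day03 the Srxn1 values ranged from 18.01 to 113.2 CPM, with the highest in replicate 3.

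Txnrd1 stood at 202.9, 153.1 and 283.9 CPM on Day00 and at 382.6, 312.5 and 329.5 CPM on Day01, without overlap and 1.44-fold higher (log2 0.53 ± 0.32, not called). From Day02 to Day06 its daily means lay between 182 and 216 CPM, near the 213 CPM of Day00. Txn1, cytosolic thioredoxin, the substrate of that reductase, stood at 101.4, 65.63 and 72.99 CPM on Day00 and was lowest on Day03 with 0, 36.98 and 34.82 CPM. A count of 0 in the first of these libraries allows up to 54 CPM, counting error only, and 6 counts in all were behind the Day03 values. The fitted difference to Day00 was -1.50 ± 0.67 on the log2 scale and was not called.

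Prdx1, a peroxiredoxin that reduces hydrogen peroxide and is recycled by thioredoxin, had the most counts of the 8 genes and another course. It stood at 547.8, 503.1 and 640.7 CPM on Day00, the lowest mean of all 42 conditions, and at 693.4, 875.1 and 1059 CPM on Day01. On Day02 it was 1236, 1547 and 1707 CPM, on Day03 630.4, 1387 and 1175 CPM, and on Day04 1122, 1087 and 1028 CPM. It was highest on Day05 with 1588, 2336 and 2360 CPM and then 813.5, 977.9 and 1003 CPM on Day06, without overlap. All days but Day03 lay above every Day00 library, and on Day03 the replicate 1 library lay among them.

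The fitted change of Prdx1 against Day00 was 2.67-fold on Day02 (log2 1.42 ± 0.20), 3.75-fold on Day05 (1.91 ± 0.19) and 1.65-fold on Day06 (0.72 ± 0.21). From Day05 to Day06 it was 2.27-fold lower (-1.19 ± 0.18). The genes most like Prdx1 over the 42 conditions were Gm10073 (r = 0.89), the proteasome subunit gene Psma4 (r = 0.888) and RP23-43M12.2 (r = 0.88), and here the likeness was present over the 7 days (0.869, 0.846 and 0.821) and over the 35 transfected conditions (0.829, 0.892 and 0.832).

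The 8 genes did not share a single course. Over the 7 daily means, r was 0.869 between Gclm and Srxn1, 0.82 between Gclm and Hmox1, and 0.687 between Gclm and Nqo1 and between Nqo1 and Txnrd1. Akr1b3 had r = 0.586 with Hmox1, 0.0872 with Gclm and -0.403 with Txnrd1. Prdx1 had r = -0.376 with Akr1b3 and 0.0858 with Gclm. Over the 35 transfected conditions r was 0.135 for Gclm with Hmox1, 0.0447 for Gclm with Srxn1 and -0.0814 for Akr1b3 with Hmox1, and it was 0.442 for Nqo1 with Srxn1, 0.411 for Nqo1 with Prdx1, 0.309 for Gclm with Txnrd1, 0.265 for Gclm with Nqo1 and -0.349 for Prdx1 with Txnrd1. All are given as descriptions over means of 2 to 5 libraries. The genes most like Hmox1 over the 42 conditions were Ampd3 (r = 0.642), Vapb (0.569) and Sprr2b (0.561), and those most like Gclm were Sprr2b (0.645), Abcc4 (0.605) and Prdx6 (0.597). For Nqo1 they were Cnn1 (0.591), Pdlim5 (0.574) and Anxa5 (0.549), for Txnrd1 Eif3a (0.771), Gm4750 (0.758) and Nedd4 (0.748), and for Txn1 Hmmr (0.492), Apoo-ps (0.466) and Gm20519 (0.441).

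The transfected controls were set against untransfected Day06 cells to describe what transfection and its extra re-plating went with. In nt, Prdx1 stood at 1851, 1752 and 2904 CPM, above every Day06 library (813.5 to 1003 CPM) and overlapping those of Day05. It was 2.35-fold higher in nt than in Day06 (log2 1.24 ± 0.18) and 2.47-fold higher in Mock, where the 5 libraries ran from 1733 to 2843 CPM. It was the only one of the 8 called in nt against Day06, in which 26.2% of genes were called, and in Mock against Day06, in which 28.8% were. Txnrd1 was lower in nt, with 113.7, 115.9 and 91.01 CPM against 210.9, 199.2 and 167.2 CPM on Day06. Those groups did not overlap, and the fitted 1.78-fold difference (-0.83 ± 0.39) was not called. In Mock, Txnrd1 ran from 25.21 to 243.2 CPM and overlapped Day06. The fitted difference of Mock to Day06 was -0.27 ± 0.36, not called, with this direction in 1 of 3 replicates. Akr1b3 stood at 129.9, 115.9 and 239.9 CPM in nt and between 0 and 226.9 CPM in Mock.

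Mock and nt differed in 1.38% of genes and in 0 of the 8 by edgeR's quasi-likelihood test. DESeq2 called 52 of 3035 genes and limma on the deposited log2 values 1 of 10568, and both called 0 of the 8. In edgeR, 1 of the 8 had an unadjusted p under 0.05. That gene was Hmox1, whose 5 Mock libraries, 252.1 to 694.4 CPM, all lay above its nt libraries at 113.7, 246.2 and 206.8 CPM. The fitted difference was 2.01-fold (log2 1.01 ± 0.32), with the highest Mock value in replicate 2.

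Among the 33 siRNAs, all set against the same 3 nt libraries, 5 of the 264 pairs of gene and siRNA were called, 1.89%, where 2.6% of all pairs of gene and siRNA were. When the Mock libraries joined nt as control, 11 pairs were called. All 5 were Prdx1, and in each it was lower than in nt. Prdx1 stood at 764.8, 840.3 and 882.4 CPM with siWdr5, 2.61-fold lower than in nt (log2 -1.39 ± 0.18), where 26.9% of genes were called. WDR5 is a core subunit of the complexes that methylate lysine 4 of histone H3. These 3 values lay within the range of Day01 and within that of Day03, and they overlapped that of Day06.

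With siHdac1, against a histone deacetylase, Prdx1 stood at 599.8, 1042 and 1559 CPM, 1.98-fold lower (-0.98 ± 0.19), with 1.05% of genes called. With siBptf, against a subunit of the NURF remodelling complex, it stood at 1228, 1135 and 1285 CPM, 1.81-fold lower (-0.85 ± 0.18), with 1.15% called. Neither group overlapped with nt. With siTead2 (872.4, 1219 and 1804 CPM, 1.65-fold lower, 0.857% called) and siPrkdc (1317, 946.2 and 1761 CPM, 1.62-fold lower, 2.01% called) the replicate 3 library lay inside the nt range, and replicate 3 was also the highest of the nt libraries. In all 5, the value was lower than nt in 3 of 3 replicates. Only siWdr5 was called without the replicate block, and only siWdr5 and siHdac1 were called without replicate 3 or in a limma fit of the deposited log2 values. The highest mean was that of siNcor1 at 2357, 2491 and 3823 CPM, which overlapped nt.

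**Figure D4:**
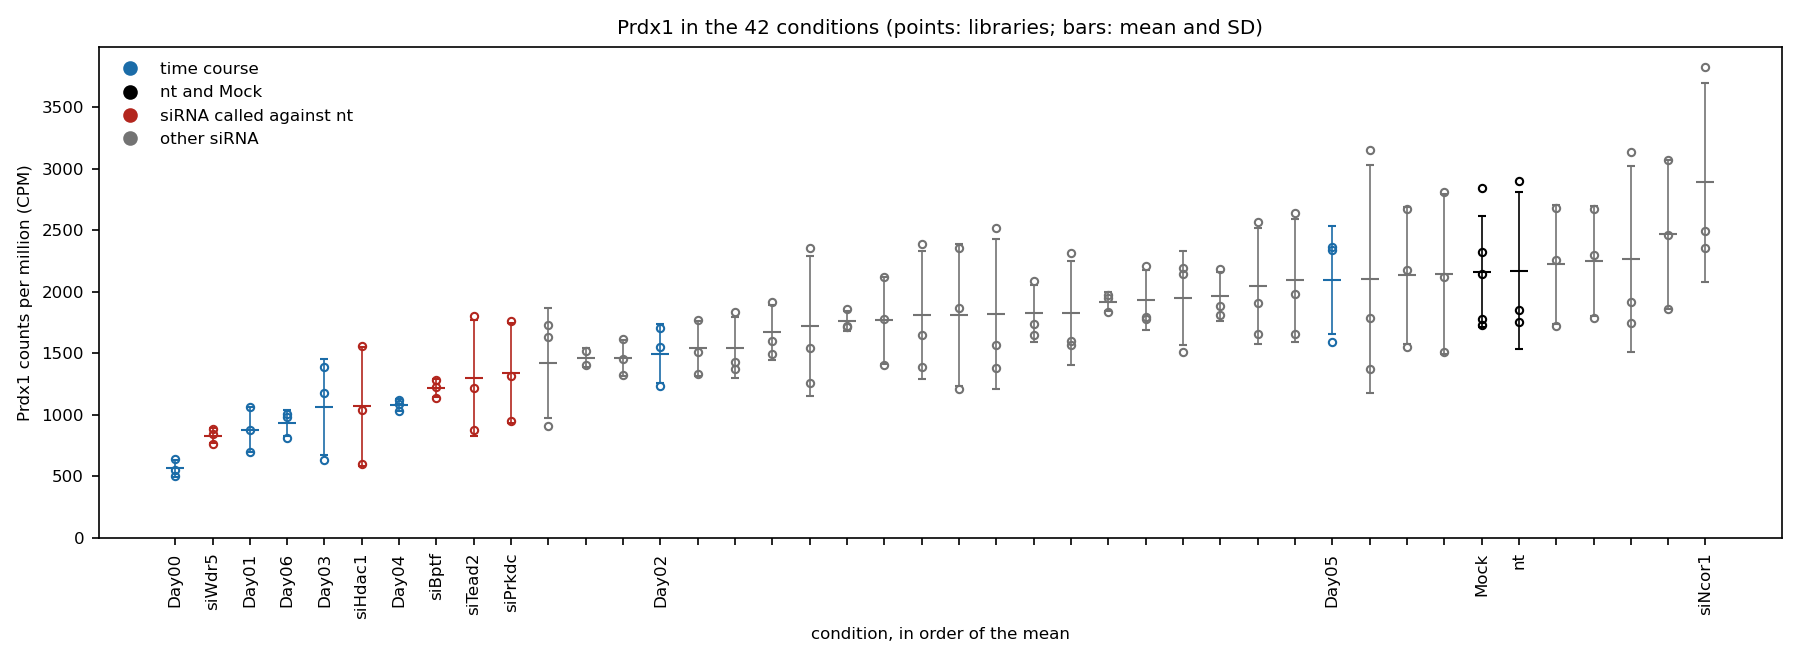
Prdx1 level in CPM (vertical axis, from 0) in the 42 conditions, ordered by their mean, with 1 point per library and the mean and SD, and names for the time course, the controls, the called siRNAs and the condition of highest mean. The 5 siRNAs called against nt are in red and lie among the time course conditions in blue, with means from 829 CPM for siWdr5 to 1342 CPM for siPrkdc, below nt and Mock in black at 2169 and 2163 CPM.

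The other 7 genes had no called siRNA against nt, and their siRNA means are given by the lowest and the highest of 33, for Txn1 by the lowest alone. Akr1b3 ran from 33.32, 0 and 129.9 CPM with siHdac1 to 243.3, 135 and 284.3 CPM with siPhf1. In none of the 98 siRNA libraries did it exceed 284.3 CPM, so that every one lay below the lowest Day02 library. Hmox1 ran from a mean of 142 CPM with siEny2 to 429.8, 579.2 and 285.6 CPM with sip53, all above the nt libraries. The fitted 2.11-fold difference of sip53 (log2 1.08 ± 0.34) was not called. Gclm ran from a mean of 313 CPM with siPrmt5 to 863.1, 645.6 and 527.4 CPM with siEp300. With nt and Mock both as control, Gclm with siEp300, Hmox1 with siEny2 and Txnrd1 with siPou5f1 were called (edgeR adjusted p = 0.0302, 0.044 and 0.0172), and Gclm with siEp300 was also called with RLE scaling.

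Nqo1 ran from a mean of 35.3 CPM with siKmt2d to 167 CPM with siBard1, and Txnrd1 from 21.34, 68.12 and 23.84 CPM with siPou5f1, all below the nt libraries, to a mean of 209 CPM with siMtf1. The siPou5f1 libraries differed from each other more than those of any other condition, since their pairs gave chi-square values per gene between 3.39 and 5.68, against at most 3.07 elsewhere. The lowest mean of Txn1 was 21.7 CPM, with siJarid2. Srxn1 had 0 counts in the 3 siMyc libraries and in the 3 siSet libraries, which allows a level of up to 20.5 and 26.1 CPM over each group, against 48.72, 28.96 and 41.37 CPM in nt, and its highest mean was 65.5 CPM with siPrmt5. Over all 35 transfected conditions as a whole 44.5% of genes were called, and 5 of the 8 (Hmox1, Gclm, Srxn1, Txnrd1 and Prdx1). Without the replicate block 2 of the 8 were called (Prdx1 and Txnrd1), and in a limma fit of the deposited log2 values 1 was (Prdx1).

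A further 52 genes of antioxidant defence and of the osmolyte response, listed for their known roles, were read in the same fit, and all 52 were tested. On Day01 against Day00, 5 were called (2 higher, 3 lower) where 10.1% of all genes were, with a median log2 fold change of 0.11 beside 0.05 over all genes. That count was 2 in the limma fit and 3 without replicate 3. On Day03 7 were called, all higher, where 11% of all genes were called, 168 of those 334 higher, with a median of 0.59 beside 0.03. That count was 3 without replicate 2 or in the limma fit, and 4 without replicate 1, without the replicate block or with no filter. On Day06 15 were called (9 higher, 6 lower) where 22.6% of all genes were, with a median of 0.25 beside 0.08. These counts are near the background share, and nothing particular to the list is read from them. On Day06 the count was 6 with no filter on low counts, 8 in the limma fit, 9 without replicate 2 and 6 without replicate 3. The list was made with earlier results of these data known.

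Among the glutathione genes, Slc7a11, the cystine carrier that feeds glutathione synthesis, rose early. It had 0 counts on Day00, 119.6, 150 and 94.14 CPM on Day01, and 144.1, 388.3 and 139.3 CPM on Day03. With the 0 set to 3 counts, it was 8.8-fold higher on Day01 and 14.6-fold higher on Day03. Mgst1, a microsomal glutathione transferase, rose 8.86-fold on Day03 (log2 3.15 ± 0.38, edgeR adjusted p = 1.95e-12), from 0, 131.3 and 56.77 CPM to 216.1, 647.1 and 644.2 CPM. Of the 10 genes of this group 6 were called on Day06, where 22.6% of all genes were, and 5 of the 6 rose, with Gsr (glutathione reductase) up 5.78-fold (edgeR adjusted p = 0.00117) and Gsta4 up 3.9-fold (0.00837). The Gsta4 value moved when single replicates were left out, with a log2 fold change of 1.18 without replicate 1 and 1.56 without replicate 2, neither called, and 6.15 without replicate 3. On that day Mgst1 was up 7.11-fold (edgeR adjusted p = 3.83e-10). Gss, glutathione synthetase, had 0 counts on Day00 and 10 on Day06, 2.74-fold higher with the 0 set to 3 counts and the 10 taken as exact. The exception was Gpx1, a glutathione peroxidase, which fell 2.05-fold (edgeR adjusted p = 0.00435).

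Prdx6, the 1-cysteine peroxiredoxin that uses glutathione, rose as early as Gclm. It was 507.2, 525 and 397.4 CPM on Day00 and 980.4, 1163 and 882.5 CPM on Day01, 2.12-fold higher (log2 1.09 ± 0.25, edgeR adjusted p = 0.000717), and it was 2.24-fold higher on Day03. Fth1 and Ftl1, the ferritin chains that store the iron that haem oxygenase frees, rose 1.86-fold and 1.53-fold on Day03 (edgeR adjusted p = 1.51e-06 and 0.00612), the day on which Hmox1 was highest, and were not called on Day01 or Day06. The Ftl1 call held in 5 of 10 alternative settings, as did that of Gss on Day06. Me1, the malic enzyme that supplies NADPH, went the other way. It was 365.2, 393.8 and 356.9 CPM on Day00 and 71.73, 62.51 and 82.37 CPM on Day01, a 4.98-fold fall (log2 -2.32 ± 0.48, edgeR adjusted p = 0.000134), and on Day06 it was 5.91-fold lower than on Day00 (log2 -2.56, and -3.87 without replicate 3). None of the 7 regulators, Nfe2l2 and Keap1 included, was called on Day01, Day03 or Day06. Of the 8 aldo-keto and detoxification genes Akr1a1 fell 1.9-fold on Day06 (edgeR adjusted p = 0.00112). Ephx1 of the same group was called higher on Day03, a call that held in 4 of 10 alternative settings.

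**Figure D5:**
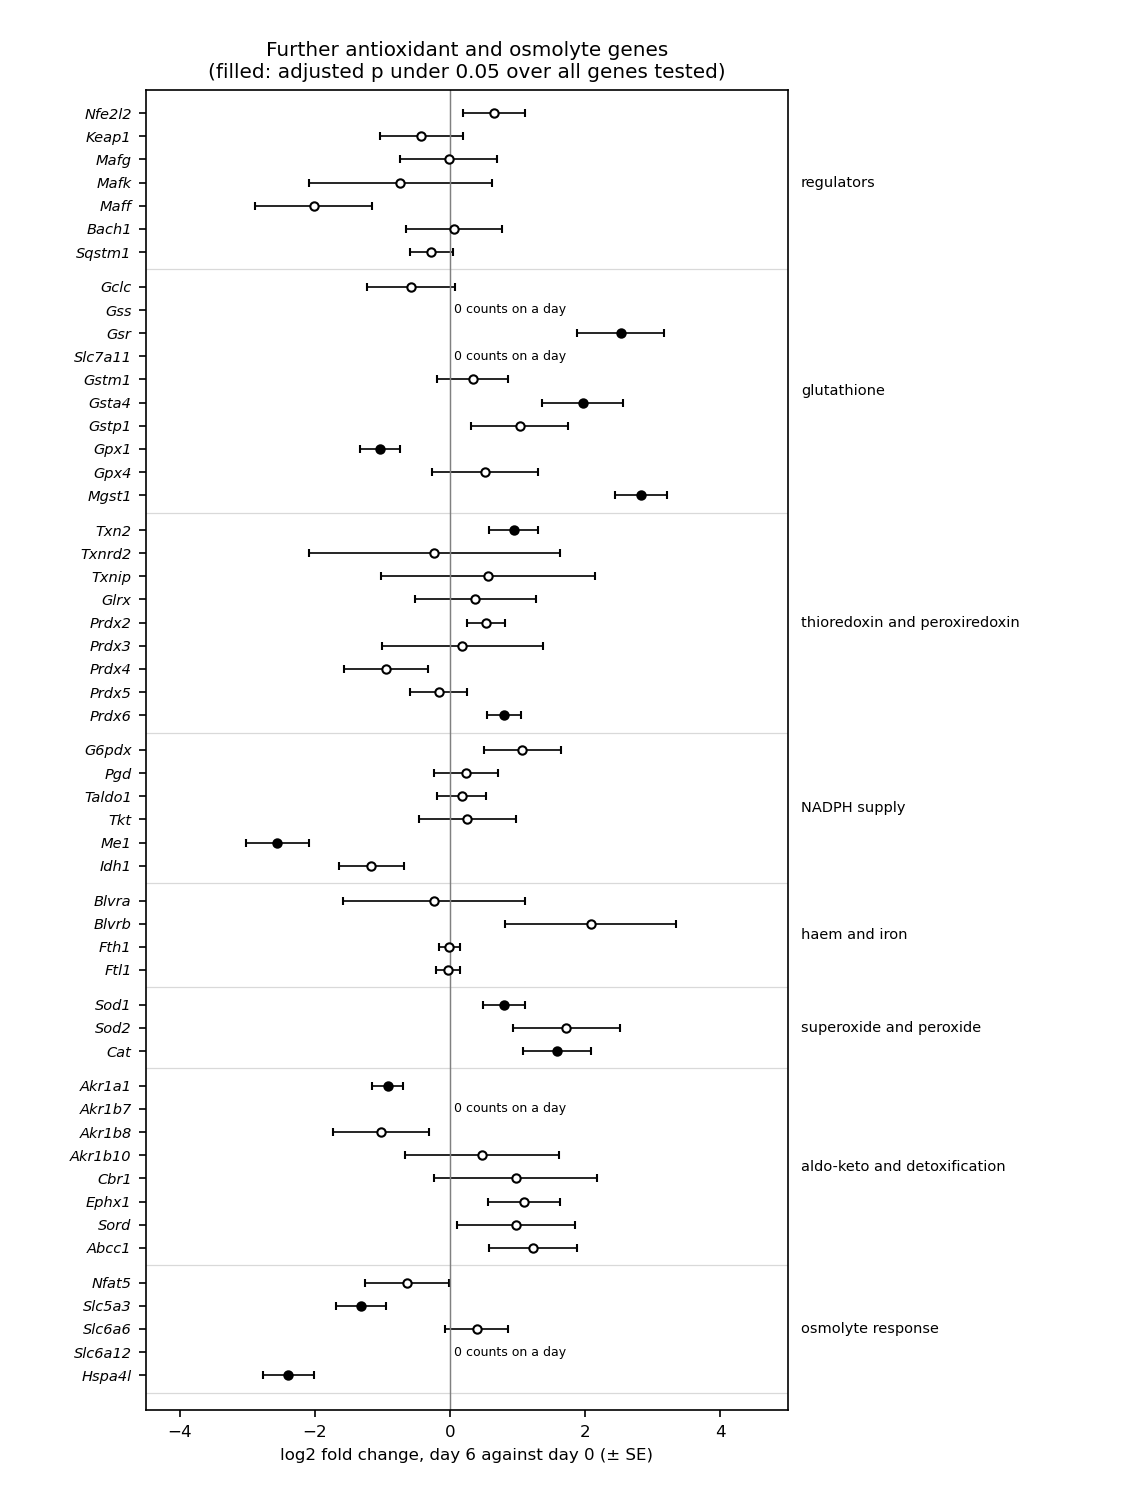
Fitted log2 fold change on day 6 against day 0 (horizontal axis, bars are SE) of the 52 further genes, grouped by role, with filled points for an edgeR adjusted p under 0.05 over all genes; 4 genes with 0 counts on a day carry no point. The called glutathione genes lie to the right except Gpx1 at -1.04, and Hspa4l at -2.40 and Me1 at -2.56 lie farthest to the left among the filled points.

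In nt against Day06, 9 of the 52 genes were called (2 higher, 7 lower) where 26.2% of all genes were (441 higher, 355 lower). The median was -0.52 beside -0.05 over all genes, or -0.37 with genes at 0 counts set to their bound. Prdx6 fell 2.19-fold (edgeR adjusted p = 0.000227), Fth1 1.7-fold (0.000135), Ftl1 1.67-fold (0.000848), Slc6a6 2.8-fold (0.0268), Gpx1 2.54-fold (0.00508) and catalase (Cat) 2.4-fold (0.0316). Idh1, which makes NADPH, rose 2.46-fold (edgeR adjusted p = 0.0237), and Prdx4, the peroxiredoxin of the endoplasmic reticulum, rose 2.7-fold (0.0479). With siWdr5, 5 of the 52 were called against nt, where 26.9% of all genes were. In neither comparison was the share of the list above the background. The count in nt was 4 without replicate 2 or 3, 5 without the replicate block, 3 in the limma fit and 2 with no filter, and that with siWdr5 was 3 without replicate 1, without replicate 2 or without the block, 2 without replicate 3, 0 in the limma fit, 1 with no filter and 8 when Mock joined the control. Fth1 rose 1.74-fold (edgeR adjusted p = 5.04e-05), Gpx1 2.54-fold (0.00485), the taurine transporter Slc6a6 3.66-fold (0.0027) and Nfat5 3.12-fold (0.0417), and Sod1, the cytosolic superoxide dismutase, fell 1.82-fold (0.036). The nt libraries stand in both of these comparisons, so that opposite directions for Fth1, Gpx1 and Slc6a6 are not independent. Over 11 alternative settings, the calls in nt held in 5 for Cat and Idh1 and in 4 for Prdx4, and those with siWdr5 in 4 for Nfat5 and 3 for Sod1. Without replicate 3 the log2 fold change of Slc6a6 was -0.77 in nt and 1.20 with siWdr5, and neither was called. In nt that of Gpx1 was -0.92 without replicate 1, not called, and -2.06 without replicate 3.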

How the data were processed

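RNA was measured by CEL-Seq2, a 3′ method with UMIs. Per the study's methods, reads were mapped to mm10 (GRCm38) with Bowtie2, corrected for UMIs with the CEL-Seq2 pipeline, and matched to GENCODE vM13. The authors deposited these as UMI counts per gene, and also deposited log2 values for 10568 genes after their own quality filter and batch regression, used here only in an alternative. Conditions were taken from the column names, which repeat the Mock name within a replicate.

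Libraries under 10000 counts were left out. Genes passing edgeR's filterByExpr and the listed genes were tested with edgeR 4.0.16 (quasi-likelihood, TMM, replicate as a block, 1 fit on 127 libraries). The code was first run on simulated counts with the same spread for all genes and no difference between replicates beyond depth. That run cannot show how the fit does on these data. SEs were taken from the test statistic. Same-numbered libraries deviated together (median correlation 0.0993, against -0.0695 for other pairs), and number 3 was sequenced most deeply. Depth sets the precision: floors for a count of 0 use 3 counts and cover counting error only. Folds against a count of 0 take the other count as exact, so the error of that other count is not covered. Pairs of libraries of a condition differed beyond counting error (chi-square per gene 1.3 or more in all 131 pairs).

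The 8 genes and all lists were chosen with earlier results of these data known. Genes named were the 8, up to 6 called listed genes of largest change per comparison, the 3 genes most alike by Pearson r, and, per gene, the called siRNAs or those of highest and lowest mean. Names beyond this, and the neighbouring-day comparisons, were chosen after their values were seen. Alternatives used RLE scaling, other filters, DESeq2 1.42.0, limma 3.58.1, no block, each replicate left out, other control or sample sets, and, added later, copies summed with their gene. Promoter windows are RefSeq's, and copies were searched with blastn 2.17.0. The highest siRNA mean of Txn1 is not reported here.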

Additional observations from a re-analysis of the deposited data

How the results depend on the processing

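The counts of calls were recomputed under each alternative, 219 values over 22 counts. Of these values 162 stayed within 1.5 times the reported count, 53 were lower and 4 were higher. Where a count moved, the cause was not tested, except that an alternative without the filter adjusts over 30778 genes and one that leaves out a replicate has fewer libraries.

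With no filter on low counts, the called genes among the 8 were 2 on Day01 against Day00, 1 on Day03 against Day02 and 3 over the transfected conditions, and those among the 52 further genes were 4 on Day03 and 6 on Day06 against Day00, 2 in nt against Day06 and 1 with siWdr5. With DESeq2 the 8 gave 2 on Day01 and 1 on Day06 against Day00. With limma on the deposited log2 values the 8 gave 2 each on Day01, Day02 and Day03 against Day00, 0 on Day02 against Day01, 0 on Day03 against Day02 and 0 on Day05 against Day04, 1 over the transfected conditions and 2 pairs of gene and siRNA, and the 52 gave 2 on Day01, 3 on Day03 and 8 on Day06 against Day00, 3 in nt against Day06 and 0 with siWdr5.

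Without the replicate block the 8 gave 2 on Day01 against Day00, 1 on Day02 against Day01, 1 on Day03 against Day02, 0 on Day05 against Day04, 2 over the transfected conditions and 1 pair of gene and siRNA, and the 52 gave 4 on Day03 against Day00, 5 in nt against Day06 and 3 with siWdr5. The block moved no other count by more than 1.5 times. With RLE scaling 2 of the 8 were called in Mock against Day06, and when the Mock libraries joined nt as control 11 pairs of gene and siRNA and, of the 52, 8 genes with siWdr5 were called.

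Leaving out each replicate in turn, the 8 gave 2 to 3 on Day01 (fewest without replicate 2), 2 to 4 on Day03 (fewest without replicate 2 or 3) and 1 to 3 on Day06 against Day00 (fewest without replicate 2 or 3), 1 to 2 on Day02 against Day01 (fewest without replicate 3), 1 to 2 on Day03 against Day02 (fewest without replicate 1), 1 to 2 in Mock against Day06 (most without replicate 1), 2 to 3 over the transfected conditions (under 5 whichever was left out) and 2 to 6 pairs of gene and siRNA (3 without replicate 2, 2 without replicate 3). The 52 gave 3 to 6 on Day01 (fewest without replicate 3), 3 to 6 on Day03 (4 without replicate 1, 3 without replicate 2), 6 to 10 on Day06 (9 without replicate 2, 6 without replicate 3), 4 to 6 in nt against Day06 (4 without replicate 2 or 3) and 2 to 3 with siWdr5 (2 without replicate 3).

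Of 1133 log2 fold changes of single genes over 108 comparisons, 907 kept their direction and call or, where not called, stayed within 1 SE, 188 kept their direction and lost the call, 34 that were not called moved by more than 1 SE, 4 gained a call and none of the called ones turned. Depth limits Srxn1, Nqo1 and Txn1 in particular, whose values rest on few counts per library. A gene among these that was not called is not shown to be unchanged.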
